A study of Danio rerio with 8 samples.

Results

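Cells of zebrafish embryonal rhabdomyosarcoma that carried both fluorescent reporters of the study (GFP+/mCherry+, called double-positive here) were compared with cells of the same tumours that carried neither (GFP-negative/mCherry-negative, called double-negative). The 2 populations were taken by their sample titles and paired by the tumour number in the title, which gives 4 of the 8 arrays of the series, and all 15502 probe sets were compared. The other 4 arrays are the GFP-only and mCherry-only cells of the same tumours, and they are given only to place the 2 compared populations. Embryonal rhabdomyosarcoma is a tumour whose cells resemble skeletal muscle that has not finished developing. The tumours were made in CG1-strain fish, 4 times outcrossed, by injecting a transgene under the rag2 promoter at the 1-cell stage into embryos that carried myf5-GFP and mylz2-mCherry, so all populations come from tumours started by that transgene. They were then grown in CG1 recipients without the reporters and taken more than 20 days after transplantation. Each population was purified by repeated rounds of flow sorting, and each has n = 2 tumours, with 1 array per population and tumour. The recipient fish had no reporter, and the labels do not say which gates host cells carried along in a tumour fell in. Some blood genes, such as hbaa1 and many leukocyte cytoskeleton genes, were high in mCherry-only as well as in double-negative arrays. Others, such as lyz, were high in double-negative arrays alone, and macrophage genes as a group were highest in mCherry-only arrays. Nothing in the labels gives the number of cells behind an array.

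In muscle development, myf5 acts early and marks progenitors and myoblasts, while mylz2, now named mylpfa, encodes a myosin light chain that is made when fast fibres build their contractile apparatus. Contraction rests on thick filaments of myosin and thin filaments of actin, which are anchored at the Z-disc and switched by troponin when calcium leaves the sarcoplasmic reticulum. Cells that carry both reporters therefore have the activity, past or present, of an early and a late myogenic promoter, since reporter protein can outlast transcription.

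Values are the deposited log-scale signals of single probe sets, read as log2, and a difference is the double-positive value minus the double-negative value. The base of the logarithm is not stated, so differences are given on the log scale and no folds are printed. Where 2 values are given for a population, the first is tumour 1 and the second tumour 2. A gene was called higher or lower where limma's adjusted p, in a fit of 4 populations with the tumour as a block, was under 0.05. The error given with a difference is the standard error from limma. Array medians lay between 4.54 and 4.71 and lower quartiles between 3.38 and 3.75. In tumour 2, the double-negative and the mCherry-only array were less like the other 6: Spearman's rho across probe sets was between 0.553 and 0.753 for pairs of 1 of them with 1 of the others, against 0.767 to 0.906 among the other 6. How many calls of a list held without that double-negative array is therefore given with the results. Probe sets were not tested against background. Of the 63 genes called lower, 29 lay under the lower quartile of both double-positive arrays, and of the 51 called higher, 11 lay under that of both double-negative arrays, so the sizes and ranks of such differences depend on values at the dim end of the scale.

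The reporter gene mylpfa checks the sort. It stood at 10.71 and 10.87 in double-positive cells and at 4.58 and 4.73 in double-negative cells. The per-tumour differences were 6.13 and 6.14, and the difference was 6.14 ± 0.58 (adjusted p = 0.00145). GFP-only cells lay between them at 7.40 and 6.23, and mCherry-only cells were at 10.80 and 9.21. A second probe set for mylpfa differed by 6.83 ± 0.69 (adjusted p = 0.002). Transcripts of myf5 were at 5.47 and 5.21 in GFP-only cells and at 3.28 and 4.34 in mCherry-only cells. They were at 3.81 and 6.02 in double-positive and at 3.96 and 4.07 in double-negative cells, a difference of 0.90 ± 0.63 (adjusted p = 0.852) that was -0.15 in tumour 1 and 1.95 in tumour 2. Among the 4 arrays of GFP-carrying cells, only the double-positive array of tumour 1 was at the level of the cells without GFP.

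Of all probe sets, 165 (1.06%) were called, 74 higher and 91 lower in double-positive cells. Of these, 37 have no single gene symbol in the annotation. Among the 8793 genes, each represented by its brightest probe set, 51 (0.580%) were higher and 63 (0.716%) lower, and all 114 had the same sign in both tumours. At an unadjusted p under 0.05, 4.80% of all genes were higher and 3.72% were lower. By sign alone, 22.2% of all genes were positive in both tumours and 19.3% were negative in both. Without the tumour block 84 probe sets were called, 37 higher and 47 lower, and all 84 were among the 165. The count also rests on single arrays: it was 8 without the double-positive array of tumour 2 and 68 without that of tumour 1. It was 350 without the double-negative array of tumour 1 and 99 without that of tumour 2. The genes that held their call in each of the 8 runs that left out 1 array, among the 69 called genes named by rule, were the parvalbumins pvalb2 and pvalb1, the myosin light chain mylz3, the lysozyme gene lyz, the nucleotidase gene nt5c2l1 and the actin-severing scinlb.

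**Figure D1:**
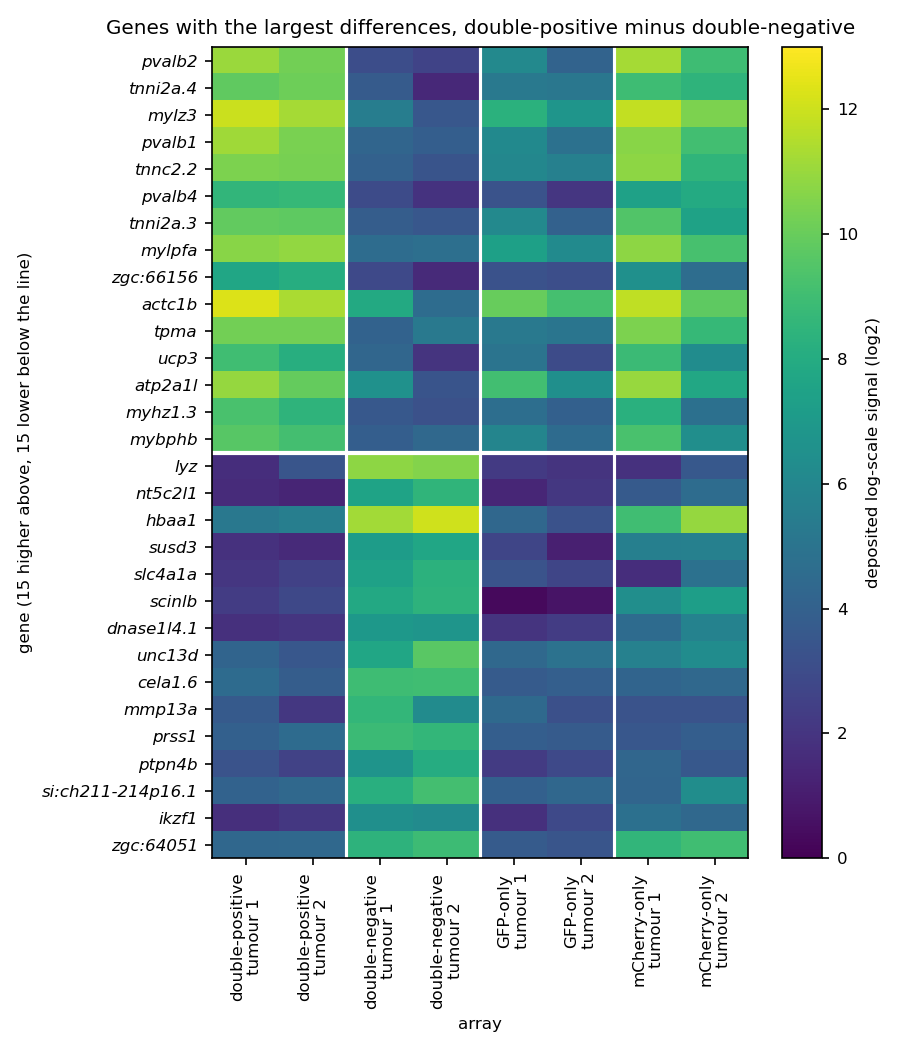
Heat map of the log-scale signal (read as log2) of the 15 called genes with the largest positive differences (above the white line) and the 15 with the largest negative differences (below it), with 1 column per array and brighter colours for higher signal. The double-positive columns are bright above the line and dark below it, the double-negative columns the reverse, and those of mCherry-only cells are bright for the muscle genes and for some of the lower genes, such as hbaa1 and zgc:64051.

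Contractile and calcium genes of muscle made up 27 of the 51 genes called higher in double-positive cells. The lists for thick filament, thin filament and troponin, Z-disc, and excitation-contraction coupling also hold 51 measured genes. Of these, 27 were higher and 0 lower, against 0.580% and 0.716% of all genes. The 27 include mylpfa, the gene of the mCherry reporter used in the sort, so its call is not a separate result. In total, 45 of the 51 were positive in both tumours and 1 was negative in both, and their median difference was 3.83 against 0.06 over all genes. The median level of the 51 genes was 8.13 and 8.27 in double-positive and 4.18 and 4.31 in double-negative cells. In GFP-only cells it was 5.46 and 4.84, and in mCherry-only cells 7.42 and 6.13. In sorted bulk cells such as these, fewer cells of a kind and less RNA of that kind per cell cannot be told apart. Blood and pancreas genes, whose values are given after the muscle genes, moved the other way, and their part in the muscle differences was not tested. Of the 27 calls, 21 held without the tumour block, 21 without the double-negative array of tumour 2 and 18 without the double-positive array of tumour 1. Without either mCherry-only array actc1a, tnnt3b and trim63a lost theirs (adjusted p from 0.0601 to 0.076). Without the double-positive array of tumour 2 only mylz3, pvalb1 and pvalb2 held theirs, and the other 24 had adjusted p-values from 0.0559 to 0.468.

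Of 8 thick filament genes, 5 were higher: mylz3, the reporter gene mylpfa, myhz1.3, mybphb and myl1. The fast myosin light chain gene mylz3 was at 11.94 and 11.27 in double-positive and 5.49 and 3.51 in double-negative cells, a difference of 7.11 ± 0.51 (adjusted p = 0.00056). The fast myosin heavy chain gene myhz1.3 was at 9.26 and 8.45 against 3.60 and 3.24, a difference of 5.44 ± 0.72 (adjusted p = 0.00653). The heavy chain value was at 8.26 and 4.79 in mCherry-only cells, so the 2 tumours lay further apart in that population than in the double-positive one. The essential light chain gene myl1 was at 10.30 and 10.43 against 5.92 and 5.07, with a difference of 4.87 ± 0.56 (adjusted p = 0.00328). Both double-positive arrays lay above both double-negative ones for these 3 called genes, as they did for 14.3% of all genes. The calls were made from the same arrays, so this describes the 3 genes and is no separate support. Calls for myhz1.3 and mybphb were lost without either double-positive array (adjusted p up to 0.189), and those for mylpfa and myl1 without that of tumour 2. One member went the other way without a call: mybpc2b, a myosin-binding protein gene, had a difference of -0.50.

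Of 16 thin filament and troponin genes, 9 were higher and all 16 were positive in both tumours. The fast troponin I gene tnni2a.4, the inhibitory subunit, was at 9.85 and 10.14 in double-positive and 3.73 and 1.49 in double-negative cells, a difference of 7.39 ± 0.63 (adjusted p = 0.000869). The fast troponin C gene tnnc2.2, the calcium-binding subunit, was at 10.46 and 10.31 against 4.04 and 3.39, a difference of 6.67 ± 0.59 (adjusted p = 0.0011). Tropomyosin tpma, which covers the myosin sites on actin, was at 10.23 in both double-positive arrays and at 4.07 and 5.28 in the double-negative ones, a difference of 5.56 ± 0.66 (adjusted p = 0.0036). For these genes the double-negative arrays of both tumours were low. The fast troponin T gene tnnt3b, which ties troponin to tropomyosin, differed from them in that respect. It was at 10.44 and 10.24 in double-positive cells but at 7.95 and 3.92 in double-negative cells, with a difference of 4.41 ± 0.82 (adjusted p = 0.0386, and 0.264 without the tumour block). The actin gene actc1b was at 12.30 and 11.37 against 7.88 and 4.61 (difference 5.59 ± 0.64, adjusted p = 0.00321). Of 3 other probe sets for actc1b the differences were 5.52, 1.18 and -0.50, the last with an adjusted p of 0.973. Those with 1.18 and -0.50 were dim, between 1.02 and 3.69 on all 8 arrays. The disagreement is thus between bright and dim probe sets, and the dim ones say little about the gene. Without the double-positive array of tumour 2 none of the 9 kept its call (adjusted p from 0.0559 to 0.468), and without the double-negative array of tumour 2 actc1a, tnnt3b, tnni2b.1 and neb lost it (adjusted p up to 0.257).

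Of 14 Z-disc and scaffold genes, 6 were higher: actn3b, ldb3a, ldb3b, ttn.2, trim63a and trim63b. Fast alpha-actinin, actn3b, which crosslinks actin at the Z-disc, was at 7.75 and 8.63 against 2.95 and 3.58 (difference 4.93 ± 0.65, adjusted p = 0.00619). Titin, ttn.2, the elastic protein that spans from Z-disc to M-line, was at 9.35 and 8.95 against 4.96 and 3.79 (difference 4.78 ± 0.56, adjusted p = 0.00344). The muscle ubiquitin ligase trim63a was at 10.17 ± 0.23 (SD, n = 2) against 7.18 and 2.87, and its difference of 5.14 ± 0.96 (adjusted p = 0.039) came with an adjusted p of 0.318 without the tumour block. Desmin, desma, the intermediate filament of muscle, was not called (10.07 and 10.48 against 8.20 and 4.22, difference 4.07 ± 0.88, adjusted p = 0.0787). All 6 calls were lost without the double-positive array of tumour 2 (adjusted p from 0.079 to 0.386). Those of ldb3a and trim63a were also lost in the run lacking double-negative cells of tumour 2 (adjusted p = 0.0571 and 0.197).

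Of 13 genes for excitation-contraction coupling and calcium buffering, 7 were higher and all 13 were positive in both tumours. Parvalbumins, which bind calcium in fast fibres and speed relaxation, included pvalb2, whose double-negative values lay under the lower quartiles of their arrays (3.50 and 3.72). pvalb2 was at 11.03 and 10.22 in double-positive and at 3.09 and 2.61 in double-negative cells, a difference of 7.78 ± 0.57 (adjusted p = 0.00056). pvalb1 and pvalb4 differed by 6.70 ± 0.51 and 6.19 ± 0.57 (adjusted p = 0.00056 and 0.00143), while pvalb3 and pvalb7 had differences of 3.82 and 2.70 that were not called (adjusted p = 0.102 and 0.139). Parvalbumin genes are close copies, and a probe set could read more than 1 of them. The calcium pump gene atp2a1l, which refills the sarcoplasmic reticulum, was at 10.93 and 9.94 against 6.59 and 3.37 (difference 5.46 ± 0.62, adjusted p = 0.00316). Its call and those of atp2a1 and of cacng1a, a subunit of the voltage-gated calcium channel, were lost without the tumour block (adjusted p from 0.0604 to 0.336). Without the double-positive array of tumour 2 the calls of pvalb1 and pvalb2 held and the other 5 were lost (adjusted p up to 0.217), and without that of tumour 1 those of atp2a1, cacng1a and srl were lost (adjusted p up to 0.113).

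**Figure D2:**
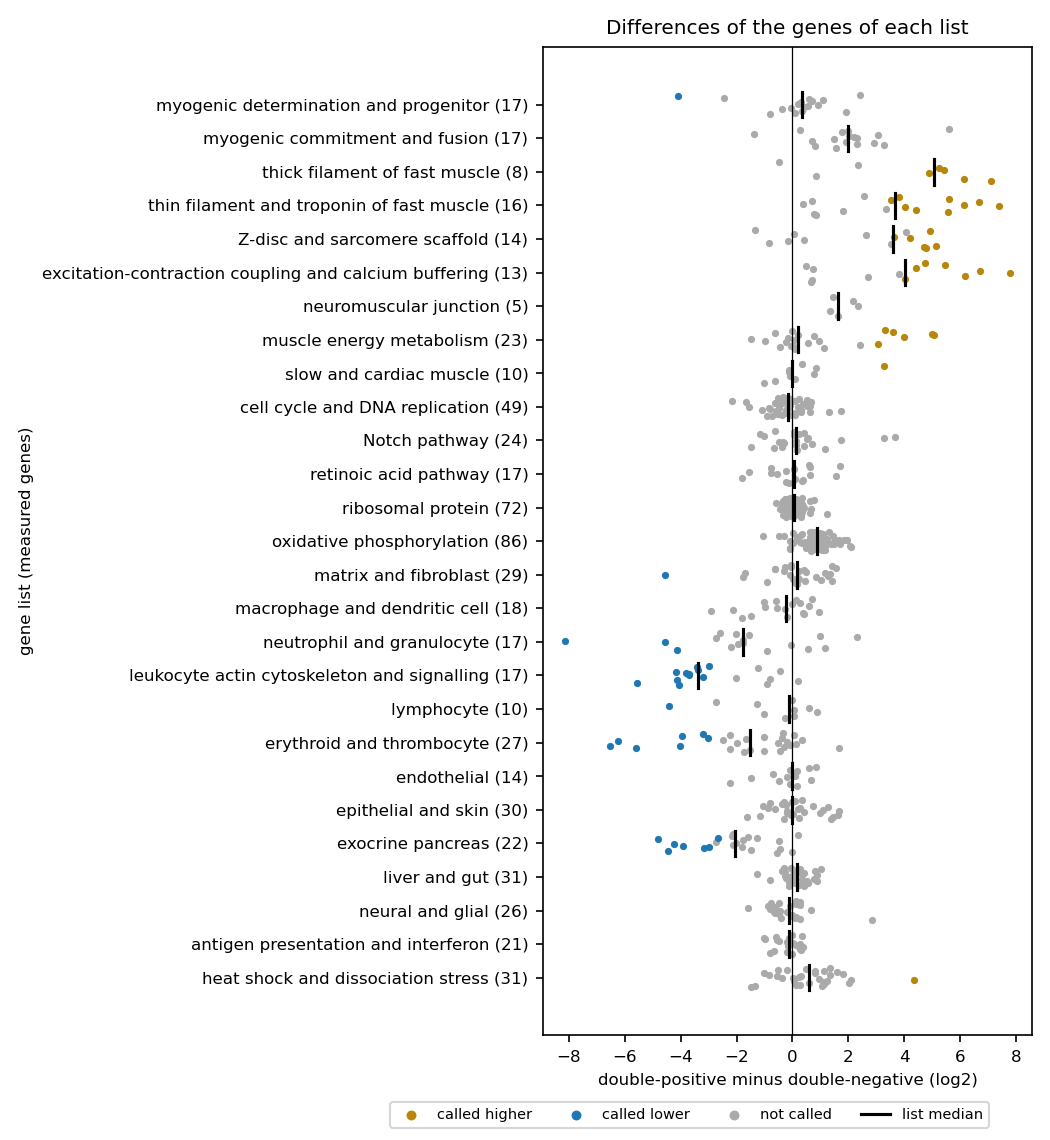
Differences between double-positive and double-negative cells (log-scale units, read as log2) for the measured members of 27 gene lists, 1 point per gene, with called genes coloured and list medians as bars. The 4 contractile lists lie to the right with medians from 3.58 to 5.06, while the leukocyte cytoskeleton and exocrine pancreas lists lie to the left with medians of -3.37 and -2.07.

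Energy genes moved in part only. Of 23, 6 were higher: the muscle creatine kinases ckma and ckmb, which buffer ATP, the glycolytic genes aldoab, gapdh and pfkma, and the adenylate kinase gene ak1. The list's median difference was 0.19. ckmb was at 10.76 and 10.47 in double-positive and 6.05 and 5.04 in double-negative cells (difference 5.07 ± 0.58, adjusted p = 0.00316), and it was the only one of the 6 called without the tumour block. Leaving out a double-positive array left 3 calls (tumour 1) or 0 (tumour 2, adjusted p from 0.0777 to 0.539). Leaving out a double-negative array left 4 or 3 calls, an mCherry-only array 4, and a GFP-only array 5. ckma was at 11.41 and 10.93 against 8.79 and 3.53, so its difference of 5.01 ± 0.97 (adjusted p = 0.0448) was 2.62 in tumour 1 and 7.40 in tumour 2. The glycolytic genes pgk1 and ldha had differences of -0.05 and -0.24, and neither was called. ucp3, a mitochondrial uncoupling protein gene of muscle that is in no list, was at 8.59 ± 0.59 (SD, n = 2) against 4.28 and 1.93 (difference 5.48 ± 0.55, adjusted p = 0.00178, and 0.0578 without the tumour block). Of 86 oxidative phosphorylation genes, subunits and assembly factors of the respiratory chain, 0 were called in either direction by limma. At an unadjusted limma p under 0.05, 16 were higher, against 4.80% of all genes. The median difference of the 86 was 0.86, with list medians of 0.33 in tumour 1 and 1.36 in tumour 2. In total, 67 of the 86 were positive in both tumours, against 22.2% of all genes. The list's median level was 7.855 and 7.82 in double-positive and 7.375 and 6.395 in double-negative cells. GFP-only cells were near the double-positive level at 7.905 and 7.58, and mCherry-only cells were at 7.40 and 6.47.

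Genes for myogenic commitment and fusion gave no call. Their list holds regulators such as myog beside structural genes of muscle such as cav3, so it is not a list of regulators alone. Of its 17 measured genes, 0 passed the test in either direction, and 14 were positive in both tumours. At an unadjusted limma p under 0.05, 12 were higher, against 4.80% of all genes. The median difference was 1.97, with values from -1.38 to 5.62. Myogenin, myog, the factor that drives terminal differentiation, was at 8.70 and 8.12 in double-positive cells and at 7.62 and 4.55 in double-negative cells, a difference of 2.33 ± 0.61 (adjusted p = 0.175). Double-negative cells of tumour 1 thus lay near the double-positive level, and those of tumour 2 lay lower. The late regulator gene myf6 was at 6.71 and 5.19 against 3.49 and 2.55 (difference 2.93 ± 0.69, adjusted p = 0.112). Jam2a, a cell adhesion protein needed for myoblast fusion, was at 10.24 and 9.50 against 10.41 and 5.29 (difference 2.02 ± 0.98, adjusted p = 0.67). Caveolin 3, cav3, had one of the widest gaps between the tumours, with 8.49 and 8.80 against 6.06 and a value listed at 0.00 (difference 5.62 ± 1.26, adjusted p = 0.0876). Of 5 neuromuscular junction genes none was called (4 at an unadjusted p under 0.05), and their median difference was 1.62.

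Of 17 determination and progenitor genes, 0 were higher and 1 was lower. At an unadjusted limma p under 0.05, 2 were higher and 2 lower, against 4.80% and 3.72% of all genes. myod1, a determination factor, was at 4.18 and 1.24 against 2.39 and 1.90 (difference 0.57 ± 0.66, adjusted p = 0.957), and the progenitor factors pax3a and pax7a had differences of -0.07 and -0.37. None of these 3 was called. Except on the double-positive array of tumour 1, myod1 lay under the lower quartile of each array compared. These quartiles were 3.66 in double-positive cells of tumour 2 and 3.50 and 3.72 in double-negative cells, so the myod1 difference says little. Other probe sets for pax7a differed by -0.13, 0.86 and 0.145, and none of them was called. The lower member was cxcr4a, a chemokine receptor gene, listed at 0.00 in both double-positive arrays and at 4.46 and 3.75 in double-negative cells (difference -4.11 ± 0.64, adjusted p = 0.0148). The lower quartiles of those double-negative arrays were 3.50 and 3.72, so cxcr4a lay just above that level in tumour 2 and further above it in tumour 1. Its call was lost without either double-positive array, with array weights (adjusted p = 0.0688) and with values raised to each array's 25th percentile (0.828). Neither the call nor the size of the difference is therefore settled. Its paralogue cxcr4b, also used by leukocytes, had a difference of -2.46 (adjusted p = 0.0559). Among 10 slow and cardiac muscle genes, 1 was higher: mybpc3, the myosin-binding protein of heart (3.26 ± 0.63, adjusted p = 0.0447, and 0.158 without the tumour block). That call was also lost without either GFP-only array, either double-positive array or, in tumour 1, the double-negative array (adjusted p from 0.056 to 0.321). The list's median difference was -0.02.

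Over all genes, the 2 tumours lay further apart in double-negative than in double-positive cells, with a median absolute gap between their arrays of 0.82 against 0.56. In the 51 contractile genes the gaps were 0.85 and 0.49. Of these genes 9 were over 2 log units higher in tumour 1 than in tumour 2 in double-negative cells and 2 were in double-positive cells. The same counts over all 8793 genes were 601 and 115. The double-negative array of tumour 2 is also among the arrays described above as less like the others. Among the 51 genes called higher the counts were 14 and 3, and 23 had double-negative values within 1 log unit of each other. The first kind includes ckma, trim63a, tnnt3b, gapdh, actc1a and actc1b, and the second mylpfa, pvalb2, pvalb1, tnni2a.3, tnnc2.2 and actn3b. In the thick filament list the median difference was 5.02 in tumour 1 and 4.98 in tumour 2. In the Z-disc list it was 1.91 and 4.65, and in the thin filament list 2.81 and 4.42. With 1 array per population and tumour, the tumours' differences were not tested against each other.

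**Figure D3:**
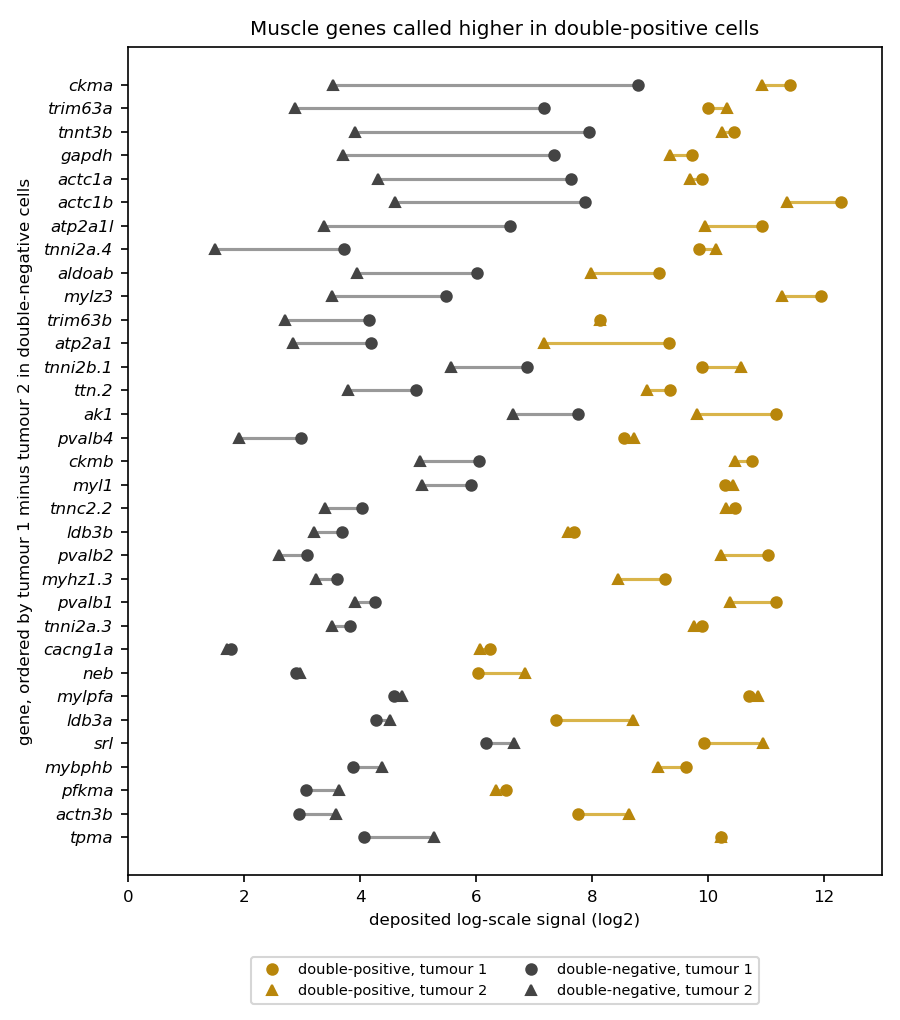
Signal (log scale, read as log2) of the muscle genes called higher, with double-positive arrays in gold, double-negative arrays in grey, a circle for tumour 1, a triangle for tumour 2 and a line that joins the 2 arrays of a population. Genes are ordered by how far tumour 1 lies above tumour 2 in double-negative cells, from ckma at 8.79 and 3.53 at the top to tpma at 4.07 and 5.28 at the bottom.

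**Figure D4:**
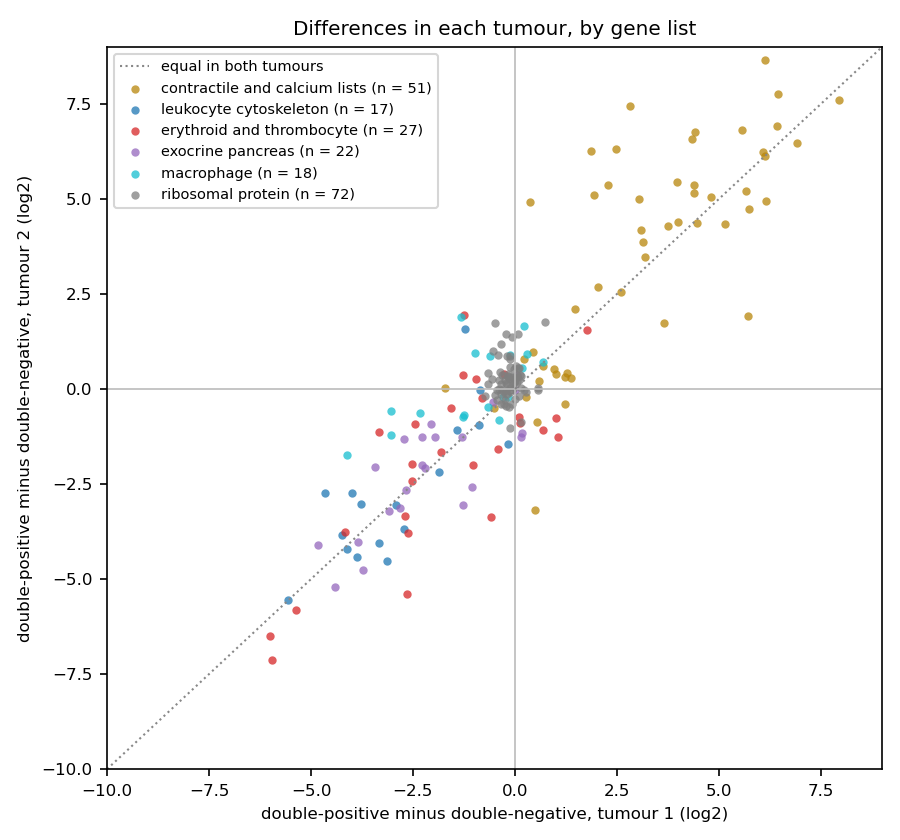
Difference between double-positive and double-negative cells in tumour 1 (x axis) and tumour 2 (y axis), in log-scale units, with 1 point per gene of 6 sets of lists and a dotted line where both tumours are equal. Contractile and calcium genes lie mostly in the upper right, leukocyte cytoskeleton, erythroid and pancreas genes mostly in the lower left, and the 72 ribosomal protein genes around the origin.

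Genes of blood and pancreas lay on the other side. Of 17 leukocyte actin cytoskeleton and signalling genes, which immune cells use to move and to signal, 11 were lower in double-positive cells, against 0.716% of all genes, and 16 of the 17 were negative in both tumours. Their median difference was -3.37. The actin-severing scinlb was at 2.30 and 2.83 in double-positive and at 7.87 and 8.38 in double-negative cells (difference -5.56 ± 0.47, adjusted p = 0.000863). Coronin, coro1a, was at 5.18 and 6.24 against 9.31 and 10.44 (difference -4.17 ± 0.48, adjusted p = 0.00328). A second, dim probe set for it, between 2.60 and 4.28 on all 8 arrays, differed by -0.81 and was not called. The pan-leukocyte phosphatase gene ptprc, which encodes CD45, was at 3.01 and 3.31 against 6.88 and 7.73 (difference -4.15 ± 0.49, adjusted p = 0.00344). Both double-positive arrays lay below both double-negative ones for these 3 called genes, as they did for 12.4% of all genes. The same arrays made the calls, so this describes the 3 genes and is no separate support. The list's median level was 4.89 and 4.97 in double-positive and 8.05 and 8.30 in double-negative cells, and it was as high as 7.79 and 7.80 in mCherry-only cells but 3.84 and 3.86 in GFP-only cells. Without the double-positive array of tumour 2 scinlb alone kept its call (adjusted p of the other 10 up to 0.274), and in the fit lacking that of tumour 1 there were 4 of 11 calls (ptprc, coro1a, scinlb and laptm5). Leaving out the double-negative array kept 5 of 11 in tumour 2 and 10 of 11 in tumour 1, and leaving out either mCherry-only array kept 9 of 11. With no tumour block 7 of 11 were called.

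Of 17 neutrophil and granulocyte genes, 3 were lower: lyz, srgn and mmp13a, and 11 were negative in both tumours (median -1.78). Lysozyme, lyz, an antibacterial enzyme of zebrafish myeloid cells, had the most negative difference of all called genes, with double-positive values under the lower quartiles of their arrays (3.62 and 3.66). It was at 1.69 and 3.43 in double-positive and 10.81 and 10.57 in double-negative cells (-8.13 ± 0.64, adjusted p = 0.00056). It was low in both single-reporter populations as well, at 2.23 and 1.97 in GFP-only and 1.85 and 3.60 in mCherry-only cells. The collagenase gene mmp13a, which is also in the matrix list, was at 3.68 and 2.13 against 8.62 and 6.29 (difference -4.55 ± 0.60, adjusted p = 0.00615, and 0.053 without the tumour block). It and srgn, a granule proteoglycan gene, lost their calls without either double-positive array (adjusted p from 0.0737 to 0.206), and srgn also lacked a call in the run that left out double-negative cells of tumour 2 (adjusted p = 0.0924). Myeloperoxidase, mpx, a defining neutrophil enzyme, was not called, at 4.73 and 3.55 against 7.53 and 4.62 (difference -1.94 ± 0.86, adjusted p = 0.597). Of 18 macrophage and dendritic cell genes, 0 were called by limma in either direction. At an unadjusted limma p under 0.05, 4 were lower, against 3.72% of all genes. The scavenger receptor gene marco was at 5.99 and 5.28 in double-positive and 6.10 and 4.38 in double-negative cells (difference 0.40 ± 0.58, adjusted p = 0.974), but at 9.91 and 9.67 in mCherry-only cells. The median level of the macrophage list was 5.50 and 5.16 in double-positive, 6.02 and 4.70 in double-negative, 3.65 and 3.32 in GFP-only and 9.08 and 9.21 in mCherry-only cells. Of the 18 genes, 10 were negative in both tumours and 4 positive in both, and the macrophage list was not tested against the leukocyte list.

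**Figure D5:**
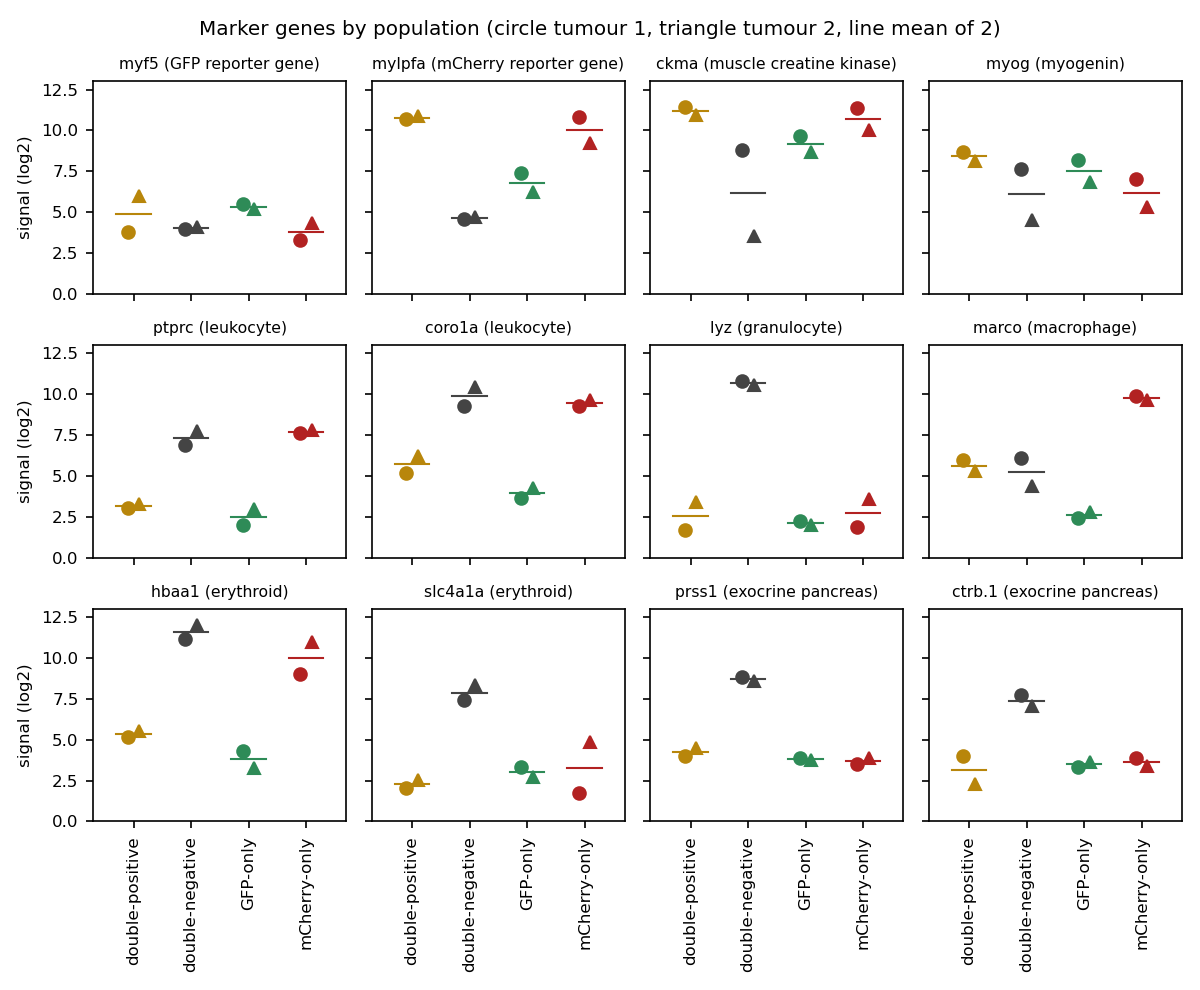
Signal (log scale, read as log2) of 12 markers of muscle, blood and pancreas in the 4 populations, with a circle for tumour 1, a triangle for tumour 2 and a line at their mean. Among the 4 populations lyz, prss1 and ctrb.1 are high in the double-negative arrays alone. The leukocyte gene ptprc is high in both the double-negative and the mCherry-only arrays, and marco is high in the mCherry-only arrays alone.

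Of 27 erythroid and thrombocyte genes, 7 were lower in double-positive cells and 17 were negative in both tumours (median -1.52). The alpha-globin gene hbaa1 was at 5.18 and 5.56 in double-positive and 11.19 and 12.05 in double-negative cells (difference -6.25 ± 0.67, adjusted p = 0.00252), and mCherry-only cells were high at 9.03 and 10.96. The anion exchanger gene slc4a1a of the red cell membrane was at 2.07 and 2.52 against 7.44 and 8.33 (difference -5.59 ± 0.76, adjusted p = 0.00725). The nucleotidase gene nt5c2l1 was at 1.59 and 1.37 against 7.55 and 8.49 (difference -6.54 ± 0.51, adjusted p = 0.00056). The other called members were klf1, a transcription factor of red cell precursors, alas2 for haem synthesis, the carbonic anhydrase gene cahz and epb41b of the membrane skeleton. Both double-negative arrays lay above all 6 others for 12 of the 27 genes, against 2.84% of all genes. The erythroid factor gene gata1a had a difference of -2.48 (adjusted p = 0.113), and the thrombocyte integrin gene itga2b one of -0.11. Without the double-positive array of tumour 2 the call of nt5c2l1 held and the other 6 were lost (adjusted p from 0.0883 to 0.358), and in the run lacking double-negative cells of tumour 2 the calls of hbaa1, slc4a1a and nt5c2l1 held. In the run lacking the double-positive array of tumour 1 there were 4 of 7 calls, and lacking the double-negative array of tumour 1 cahz alone was lost (adjusted p = 0.0593).

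Digestive proteases of the exocrine pancreas were lower in double-positive cells as well. Of 22 measured genes 7 were called, 18 were negative in both tumours, and the median difference was -2.07. Trypsin, prss1, was at 4.00 and 4.52 in double-positive and 8.84 and 8.62 in double-negative cells (difference -4.47 ± 0.48, adjusted p = 0.00254). The elastase gene cela1.6 was at 4.57 and 3.82 against 8.98 and 9.03 (difference -4.81 ± 0.49, adjusted p = 0.00186). The chymotrypsin gene ctrb.1 was at 4.02 and 2.32 against 7.74 and 7.07 (difference -4.24 ± 0.56, adjusted p = 0.00615). Both double-negative arrays lay above all 6 others for 16 of the 22 genes, again against 2.84% of all genes, and prss1 was between 3.54 and 3.90 in the 4 single-reporter arrays. The carboxypeptidase gene cpa5 had a difference of -2.74 (adjusted p = 0.0993), and the pancreatic transcription factor gene ptf1a was level at -0.01. Protease genes of this family resemble each other, so 1 probe set may pick up several of them. All 7 calls were lost without the double-positive array of tumour 2 (adjusted p from 0.0559 to 0.373), and 4 of 7 held in the run lacking that of tumour 1, in the run lacking the double-negative array of tumour 2, and in the fit with no tumour block. The call of cela1.1, another elastase gene (difference -2.66 ± 0.52, adjusted p = 0.0478), was lost in each of the 8 runs that left out 1 array.

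Other cell types gave few calls. Of 10 lymphocyte genes, 1 was lower: the haematopoietic transcription factor gene ikzf1, at 1.74 and 2.12 against 6.45 and 6.25 (difference -4.42 ± 0.53, adjusted p = 0.00369), which was lost without either double-positive array (adjusted p = 0.0588 and 0.079). Lists of 14 endothelial, 30 epithelial and skin, 31 liver and gut, and 26 neural and glial genes had 0 calls each by limma and medians of -0.03, -0.01, 0.17 and -0.14. At an unadjusted limma p under 0.05 they held 2, 1, 1 and 2 genes, where 4.80% of all genes were higher and 3.72% lower. The list of 21 genes for antigen presentation and interferon (median -0.13) had 0 by either measure. Of 29 matrix and fibroblast genes mmp13a was the only call. Thus the blood and pancreas genes called lower in double-positive cells were not accompanied by calls among skin, vessel, liver or nerve markers. With 4 arrays compared, smaller differences stay undetected.

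The cell cycle, ribosomal protein, Notch and retinoic acid lists had medians from -0.15 to 0.14, against 0.06 over all genes. The counts at an unadjusted limma p under 0.05 stand beside 4.80% of all genes higher and 3.72% lower. Of 49 cell cycle and DNA replication genes, 0 were called by limma (4 at an unadjusted p under 0.05), the median difference was -0.15, and the values ran from -2.16 for cdk1, the mitotic kinase, to 1.72 for pold2, a DNA polymerase subunit. Of 72 ribosomal protein genes 0 were called (1 at an unadjusted p under 0.05, median 0.06, from -0.58 to 1.25). Of 24 Notch pathway genes 0 were called (4 at an unadjusted p under 0.05, median 0.14). The target gene her6 was at 6.55 and 8.87 in double-positive and at 6.89 and 1.22 in double-negative cells (difference 3.66 ± 1.39, adjusted p = 0.471). For her6 the tumours lay furthest apart in double-negative cells, with tumour 2 at 1.22, but the double-positive arrays differed as well. Another target, her9, was at 7.62 and 8.53 against 5.78 and 3.84 (difference 3.27 ± 0.66, adjusted p = 0.0544). Of 17 retinoic acid pathway genes 0 were called (3 at an unadjusted p under 0.05, median 0.07). Among 31 heat shock and dissociation stress genes, which can respond to tissue handling, 1 was higher: the small heat shock gene hspb1, at 8.53 and 8.22 against 5.22 and 2.82 (difference 4.36 ± 0.59, adjusted p = 0.00704, and 0.0912 without the tumour block or 0.132 without the double-positive array of tumour 2). Small heat shock proteins are also abundant in muscle. The list's median was 0.60, with 15 genes positive and 7 negative in both tumours.

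The single-reporter populations place the called genes. Of the 63 genes lower in double-positive cells, 61 had a GFP-only mean within 1 log unit of the double-positive mean or below it, and 22 had an mCherry-only mean within 1 log unit of the double-negative mean or above it. In 31 the double-negative mean was more than 2 log units above both single-reporter means. Of the 51 higher genes, 16 had an mCherry-only mean within 1 log unit of the double-positive mean or above it, and 17 had a GFP-only mean within 1 log unit of the double-negative mean or below it. In 27 of the 51 both double-positive arrays lay above all 6 others, against 2.57% of all genes. These groups share the double-positive and double-negative arrays that made the calls, so the counts describe the genes and support nothing on their own. The interaction, which asks whether carrying both reporters differs from the sum of the 2 single-reporter differences, was called for 0% of probe sets by limma, with 286 positive and 338 negative at an unadjusted p under 0.05. Closest to the threshold among the lower genes named here were lyz, with an interaction of 8.43 ± 0.91 (adjusted p = 0.0557), and prss1, with 5.46 ± 0.68 (adjusted p = 0.0679). The interaction adds the double-negative values, which also made the calls of these genes. Selection thus favours positive values, and the median interaction was 2.185 in the genes called lower against 0.03 over all genes. These values are no separate support.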

How the data were processed

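Expression was measured on Affymetrix zebrafish arrays, with 1 array for each of 4 sorted populations of 2 tumours. Per the labels' protocols, the NuGEN Ovation Pico WTA system amplified total RNA before biotin labelling. The deposited log2-like signals of 15502 probe sets were used as deposited and read as log2. The sources used here do not give the log base, the probe summary or the scaling, and a natural logarithm would leave the p-values as they are. The number of arrays limits the precision, and signal over background was not used here.

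Probe sets were named from the array's annotation with symbols updated through the RefSeq table of assembly GRCz12tu: 10795 had 1 symbol, 135 had several and 4572 had none there, and 10711 of the first kind matched by gene identifier. Each of the 8793 genes is represented by its probe set with the highest mean over the 8 arrays. A linear model of 4 population means with the tumour as a block was fitted to all 8 arrays (lmFit and eBayes of limma 3.58.1 under R 4.3.3), with 3 residual degrees of freedom and a prior of 6.81. The tests were two-sided, with Benjamini-Hochberg adjustment over the 15502 probe sets and a threshold of 0.05. The fit was also run on data simulated with its own spread and with a tumour shift common to all populations. That run cannot test these assumptions.

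Same-numbered arrays share a tumour by their titles, which pairs the populations. As a check, each array's departure from its population mean was correlated between populations of the same tumour. The correlation was -0.0291 for double-positive with double-negative arrays, and between 0.0974 and 0.492 for the other 5 pairs of populations. For the pair compared here the check thus gave no sign of a shared tumour effect, and its pairing rests on the titles alone. The count of calls depends on that choice, with 165 probe sets called with the block and 84 without it. The p-values rest on the spread left in all arrays after population means and tumour were taken out, with 3 residual degrees of freedom. They also rest on the prior of 6.81 degrees of freedom, which is drawn from all probe sets. The prior SD was 0.552 in this fit and 0.806 in the blocked fit of only the 4 arrays compared. The errors and p-values given may thus be too small for double-positive minus double-negative. With 2 tumours, the p-values do not measure the spread among tumours in general, and nothing in the labels says how many recipients gave an array.

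The comparison, the 28 gene lists and their members were chosen with earlier results of these data known. Named by rule were the 2 reporter genes, the 15 called genes with the largest difference in each direction, up to 8 called members of each list (with fewer than 2 called, the highest and lowest member), fixed regulators and the cell type markers, of which 37 of 45 were measured. Outside it cxcr4b, her9, jam2a, ldha, mybpc2b, myf6, neb, pgk1, ptf1a, pvalb3 and pvalb7 were chosen after their values were seen. One gene list and the transgene's product are not reported here. One lymphocyte entry, polr1g, is an RNA polymerase subunit that an older symbol brought in. Alternatives were a fit without the tumour block, only the arrays compared, quantile normalization, a filter on the dimmest 30% of probe sets, values raised to each array's 25th percentile, a trended robust prior, array weights, and each array left out. For double-positive minus double-negative, leaving out either GFP-only array gave the same fit, as did leaving out either mCherry-only array. The 8 runs are therefore not 8 separate checks of that difference. Results without both arrays that stand apart were computed as well.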

Additional observations from a re-analysis of the deposited data

How the results depend on the processing

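The number of calls depends on the processing and on single arrays. With no replicate block, which ignores the pairing by tumour, 84 probe sets were called (37 higher, 47 lower). With only the 4 arrays compared, 239 were called with the tumour as a block (130 higher, 109 lower) and 80 without it (44 higher, 36 lower). That blocked fit had 1 residual degree of freedom and an infinite prior, so every probe set was given the same spread. Its larger count is therefore not stronger evidence for the calls. With values raised to each array's 25th percentile 71 were called (27 and 44), and with array weights 85 (45 and 40). The interaction, called for 0 probe sets as reported, was called for 1 and 2 of them in these last fits, for 3 without the dimmest probe sets, for 4 with a trended robust prior and for 7 without the tumour 2 arrays of double-negative and mCherry-only cells. Leaving out 1 array gave from 8 to 350 calls (4 to 234 higher, 4 to 116 lower) and 0 to 21 for the interaction. Quantile normalization (161 calls) stayed within 1.5 times the reported count. A dim probe set of actc1b, between 1.02 and 3.69 on all 8 arrays, has the opposite sign (-0.50). Of the 69 named called genes, 6 held their call in every run without 1 array, and 63 lost it without the double-positive array of tumour 2 (adjusted p from 0.0559 to 0.539). The causes were not tested.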

Other observations

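Genes outside the muscle lists were also higher in double-positive cells, and they were picked here after their values were seen. The muscle RING-finger gene trim55b was at 8.55 and 8.44 in double-positive and 3.84 and 4.18 in double-negative cells (difference 4.49 ± 0.62, limma adjusted p = 0.00754), and it lost its call without either double-positive array (adjusted p = 0.0906 and 0.179). fbxo32, known in mammals as an ubiquitin ligase of muscle atrophy, was at 8.34 and 8.84 against 6.27 and 4.11 (3.40 ± 0.64, adjusted p = 0.0415, and 0.198 without the tumour block). Its call held in 2 of the 8 runs that left out 1 array and was lost without either GFP-only array (0.0531), either mCherry-only array (0.0738), or the double-positive or double-negative array of tumour 2 (0.325 and 0.272). trim55a was at 6.63 and 7.37 against 4.44 and 4.37 (2.60 ± 0.49, adjusted p = 0.039, and 0.0849 without the block). The call of trim55a was lost in each of the 8 runs that left out 1 array. The transcription factor gene mafaa was at 8.72 and 7.44 against 4.27 and 3.90 (4.00 ± 0.57, adjusted p = 0.00844), a call lost without either double-positive array (0.113 and 0.126). The inducible heat shock gene hspa1b was at 7.70 and 8.17 against 4.72 and 2.87 (4.14 ± 0.66, adjusted p = 0.0161), beside 1 called gene of the stress list. That call was lost without either double-positive array (0.106 and 0.279) or, in tumour 2, the double-negative one (0.0942). The chemokine gene cxcl14 moved with the tumour as well as with the population: it was at 8.36 and 5.77 in double-positive cells, and lower by 3.36 and 3.95 in the double-negative cells of tumours 1 and 2. With the tumour as a block the difference was 3.66 ± 0.48 (adjusted p = 0.00615), and without it the adjusted p was 0.83. It was also lost without the double-positive array of tumour 2 (0.106).

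On the double-negative side the aldolase gene aldocb was at 8.85 and 9.50, against 6.18 and 6.49 in double-positive cells (difference -2.84 ± 0.55, adjusted p = 0.0448, and 0.0862 without the block), while its muscle paralogue aldoab differed in the other direction (3.60 ± 0.49). The aldocb call was lost without either double-positive array (0.198 and 0.274), either mCherry-only array (0.0952) or, in tumour 2, the double-negative one (0.309). unc13d, a gene for the release of granules in blood cells, was at 7.69 and 9.66 against 4.18 and 3.52 (-4.83 ± 0.62, adjusted p = 0.00602, and 0.116 without the double-positive array of tumour 2). The mCherry-only arrays were between these levels, at 5.73 and 6.32.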
